A study of Mus musculus with 48 samples.

Results

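The opioid and tachykinin systems were followed through 10 genes in the hippocampal CA region of conditional CB1 knockout mice. They are 6 peptide precursors (*Pomc*, *Penk*, *Pdyn*, *Pnoc*, *Tac1* and *Tac2*) and 4 opioid receptors (*Oprm1*, *Oprd1*, *Oprk1* and *Oprl1*), taken by symbol from a table of 24421 genes. All 10 were present in the table and passed the filter on low counts in each of the 10 comparisons.

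RNA-sequencing was done on CA tissue, from which the dentate gyrus had been removed, of 48 male mice, with 1 library per mouse. The mice were 8 weeks old by their labels, or 8 to 10 weeks old by the study's methods. All mice carried floxed CB1 alleles. In the Glu-CB1 line Cre recombinase is expressed from *Nex* regulatory elements, which deletes CB1 (*Cnr1*, the cannabinoid receptor of presynaptic terminals) in glutamatergic neurons. In the GABA-CB1 line Cre is under *Dlx5/6* elements and deletes it in GABAergic neurons. CB1-WT mice were littermates from the same line. Basal mice came from the home cage, and the other mice had spent 5 min in an open field. By the study's text, tissue of the latter was taken at a single time after the exposure. In the Glu-CB1 line there were 5 CB1-WT and 7 KO mice in each state. In the GABA-CB1 line there were 6 of each genotype in the basal state, and 7 CB1-WT and 5 KO mice after the open field. The study's text gives the sizes of those last groups the other way round. The labels were followed. Under them *Cnr1* ran from 336 to 394 CPM in the CB1-WT libraries and from 100.3 to 155 CPM in the KO libraries. CPM are reads scaled to a common library total that was normalized between libraries. The mice sequenced had been selected by the study for tissue purity, behaviour and neuronal activity in the open field, so a rise of activity genes is not independent of that choice.

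Opioid peptides are cut from large precursors, some of which carry several copies of a short motif, and they act on Gi/o-coupled receptors that lower release of transmitter. Enkephalins from *Penk* act mainly on delta and mu receptors, dynorphins from *Pdyn* on kappa receptors, beta-endorphin from *Pomc* on mu receptors and nociceptin from *Pnoc* on its own receptor. Tachykinins (substance P and neurokinin A from *Tac1*, neurokinin B from *Tac2*) act on Gq-coupled receptors and in the hippocampus are made mostly by subsets of interneurons, while dynorphin is best known from granule cells and their mossy fibres.

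A short shared motif defines each family, so a stretch that encodes it is shown for every precursor, with 1 or 2 copies where there are more. The sequences are those of GENCODE transcripts on GRCm38, the assembly named mm10, each of 27 bases with the codons of the motif in capitals. For the opioid precursors the motif is the enkephalin core, which ends in methionine (Met) or leucine (Leu), and for *Pnoc* it is the related start of nociceptin. For *Tac1* and *Tac2* it is the tachykinin end, which is followed by a glycine codon from which the terminal amide is made.
Penk, Met copy, chr4:4134328-4134354, minus strand: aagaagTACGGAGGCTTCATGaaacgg
Penk, Leu copy, chr4:4133935-4133961, minus strand: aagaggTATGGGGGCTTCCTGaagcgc
Pdyn, Leu copy, chr2:129688232-129688258, minus strand: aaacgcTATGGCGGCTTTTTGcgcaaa
Pomc, Met copy, chr12:3960367-3960393, plus strand: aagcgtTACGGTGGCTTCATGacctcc
Pnoc, nociceptin start, chr14:65404872-65404898, minus strand: aaaaggTTTGGGGGCTTCACCggggcc
Tac1, first copy, chr6:7556744-7556770, plus strand: cagcagTTCTTTGGATTAATGggcaag
Tac1, second copy, chr6:7559110-7559136, plus strand: gattccTTTGTTGGACTAATGggcaaa
Tac2, single copy, chr10:127729125-127729151, plus strand: gacttcTTTGTGGGACTTATGggcaag
The *Penk* coding sequence holds 7 enkephalin copies, of which 6 end in Met and 1 in Leu. *Pdyn* holds 3 copies, all ending in Leu, and *Pomc* holds 1, ending in Met. The *Tac1* copies lie in exons 3 and 6 of a transcript with 7 exons, while *Tac2* has 1 copy in exon 6 of 8.

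Between 25892654 and 34091080 reads were counted on genes per library (median 30975561). *Cnr1* was lower in KO than in CB1-WT libraries of each line and state, with log2 differences of -0.73 and -0.72 in the Glu-CB1 line (basal and open field) and of -1.23 and -1.45 in the GABA-CB1 line. Of 10 immediate early genes 7 (*Fos*, *Fosb*, *Junb*, *Arc*, *Egr1*, *Egr2* and *Nr4a1*) rose after the open field in each line, with *Fos* at 1.95 ± 0.21 (SE, log2) in Glu-CB1 mice and 1.92 ± 0.25 in GABA-CB1 mice (adjusted p = 1.11e-05 and 3.06e-04, edgeR). Between genotypes edgeR called 1 of the 10, *Npas4*, lower in basal GABA-CB1-KO mice (-0.49 ± 0.07, adjusted p = 0.00604, edgeR), with 0.245% of all genes called. DESeq2 called *Npas4* there too, and *Fosb* lower in GABA-CB1-KO mice after the open field. In that last comparison DESeq2 called 141 of all genes and edgeR 3. The tissue label was checked by summed markers. The 8 CA pyramidal markers summed to between 573 and 771 CPM, and 7 dentate granule markers to between 79.9 and 258 CPM, and each of the 7 was above 0 in every library (*Tdo2* from 2.31 to 10.7 CPM). Whether these reads came from dentate cells was not tested. Markers of pituitary, which is no part of the dissected tissue, summed to between 0.19 and 204 CPM.

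*Penk* and the nociceptin receptor *Oprl1* gave the highest levels per length of exon, and the mu receptor *Oprm1* the lowest. Mean levels over the 48 libraries were 22.3 CPM per kb for *Penk* and 17.9 for *Oprl1*. *Tac1* followed at 5.70 CPM per kb, and *Pomc*, *Pnoc*, *Oprd1* (delta receptor), *Pdyn* and *Tac2* lay between 2.61 and 3.42 CPM per kb. *Oprk1* (kappa receptor) was at 0.84 and *Oprm1* at 0.21 CPM per kb. The gene models behind these lengths overlap another gene's exons only for *Oprm1*, which shares exon sequence with *Ipcef1*.

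**Figure D1:**
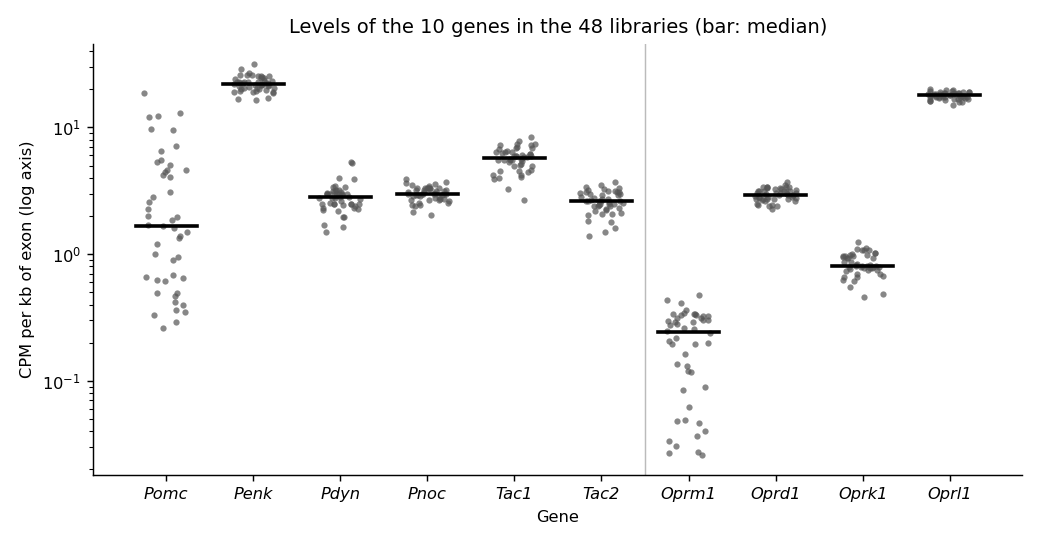
Level of each gene (CPM per kb of exon, log axis) in the 48 libraries, with 1 point per library and a bar at the median; precursors are left of the line and receptors right of it. Points of *Pomc* and *Oprm1* are spread over more than a factor of 10, while those of *Oprl1* lie close together.

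The spread between libraries also differed between the genes. *Oprl1* varied least, from 49.9 to 66.7 CPM (coefficient of variation 6.28% over 48 libraries). *Pomc* varied most, from 0.34 to 24.9 CPM, which is 9 to 807 reads and a coefficient of variation of 120%. That is above 99.9% of the 13707 genes with a mean of at least 1 CPM, while the coefficient of *Oprm1* was 59.5% and that of *Pdyn* 25.99%. For none of the 10 genes did neighbouring groups, ordered by their means, differ by more than the larger of their SDs. This looks only at neighbours and says nothing of groups farther apart, such as the outer *Tac1* means of 4.61 and 6.77 CPM.

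Loss of CB1 was first examined within each line and state. The tests used edgeR's quasi-likelihood method with Benjamini-Hochberg adjustment over all genes tested, and a call is an adjusted p under 0.05. In basal Glu-CB1 mice 0 of the 10 genes were called and 0 had an unadjusted p under 0.05, with 0.0198% of all genes called and 3.57% at that unadjusted p. In Glu-CB1 mice after the open field 0 were called and 2 (*Tac1*, *Oprl1*) had an unadjusted p under 0.05, with 0.272% of all genes called and 6.97% at that p. In basal GABA-CB1 mice 0 were called and 2 (*Pomc*, *Tac2*) had an unadjusted p under 0.05, with 0.245% called and 8.16% at that p. In GABA-CB1 mice after the open field 0 were called and 3 (*Penk*, *Tac1*, *Oprd1*) had an unadjusted p under 0.05. The background there was 0.0199% of genes called but 13.2% with an unadjusted p under 0.05. DESeq2 called 0 of the 10 genes in the same 4 comparisons, although in the last it gave no adjusted p for 7 of them. In 0 of these 40 pairs of gene and comparison did KO and CB1-WT libraries separate without overlap, against 0.198% and 0.743% of all genes in the Glu-CB1 line (basal and open field) and 0.709% and 0.987% in the GABA-CB1 line.

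**Figure D2:**
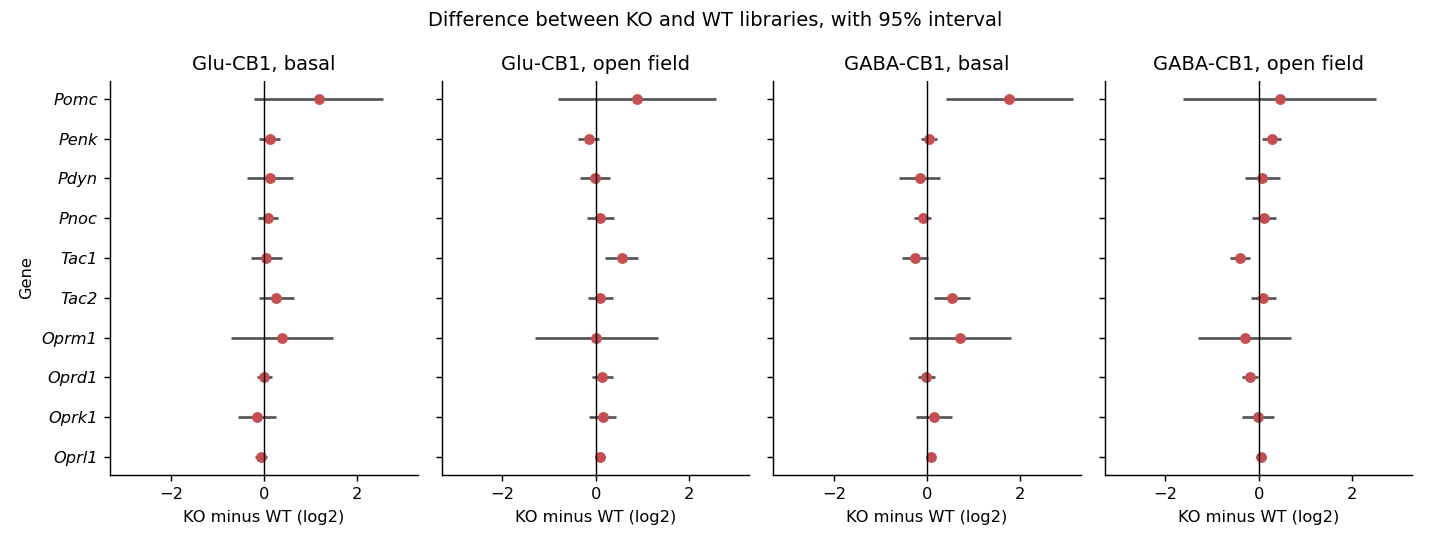
Difference between KO and CB1-WT libraries (log2, horizontal axis) for each of the 10 genes in the 4 comparisons of genotype, with points at the estimate and lines for its 95% interval. Most estimates lie near 0, the intervals of *Pomc* and *Oprm1* are the widest, and *Tac1* lies right of 0 in open field Glu-CB1 mice and left of it in open field GABA-CB1 mice.

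*Penk*, the enkephalin precursor, differed little between genotypes. In GABA-CB1 mice after the open field it had 28.9, 34.5, 35.8, 36.9 and 45.03 CPM in the 5 KO libraries, against a range of 26.5 to 35.4 CPM (median 30.3) in the 7 CB1-WT libraries. The groups overlapped, and the library at 45.03 CPM was the highest of all 48. The log2 difference was 0.28 ± 0.09 (SE, adjusted p = 0.266, edgeR), and without that library it was 0.19. In the other comparisons of genotype it lay between -0.15 and 0.12, and the difference between the lines' KO effects after the open field was 0.44 ± 0.14 (adjusted p = 0.221, edgeR), also short of the threshold. The 3 genes nearest to *Penk* were *Snn*, *Dkk3* and *Olfm1* (r = 0.64, 0.60 and 0.60).

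*Pdyn*, the dynorphin precursor, showed no difference between genotypes that passed the test. Its log2 differences lay between -0.16 and 0.14, with the widest 95% interval, that of basal Glu-CB1 mice, running from -0.36 to 0.63. Its variation between mice, measured by deviations from the group means, followed the dentate granule markers most closely of the 14 marker lists. Pearson's r was 0.89 and Spearman's rho 0.90 over 48 libraries (p = 1e-05 for both, the smallest that 100000 permutations within groups can give; adjusted p = 7e-04 and 0.0014 over 140 pairs of gene and marker list). Without the 2 libraries farthest in the markers r was 0.85, and within the ranges of sample numbers described below it was 0.89. *Pdyn* also followed the thalamus markers (r = 0.54, rho = 0.50; adjusted p = 0.0084 and 0.0182, permutation within groups) and ran opposite to the interneuron markers (r = -0.49, rho = -0.50; adjusted p = 0.0258 and 0.017). The thalamus sum (median 104 CPM) is mostly *Prkcd* and *Plekhg1* (medians 38.7 and 35.9 CPM). The other genes of that list had medians of 0.06 to 10.6 CPM. The 3 genes nearest to *Pdyn* by its deviations were *Capn3*, *Npnt* and *Dock10* (r = 0.88, 0.87 and 0.86). In bulk tissue more cells of a type and more RNA per cell cannot be told apart.

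*Pomc*, the precursor of beta-endorphin and of adrenocorticotropin, had the largest differences between genotypes, and they were within the spread of the mice. In basal GABA-CB1 mice the 6 KO libraries ran from 0.47 to 12.6 CPM (median 3.38), and the 6 CB1-WT libraries from 0.62 to 4.08 CPM (median 0.86). The KO range enclosed that of the CB1-WT mice. The log2 difference was 1.77 ± 0.61 (SE, adjusted p = 0.463, edgeR), falling to 1.26 without the highest KO library and rising to 2.44 without the highest CB1-WT library. In the other 3 comparisons it was 1.17 ± 0.62 (basal Glu-CB1), 0.89 ± 0.76 (open field Glu-CB1) and 0.45 ± 0.93 (open field GABA-CB1), with adjusted p of 0.855 or more (edgeR).

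Pituitary markers moved with *Pomc*. The 3 of 7 pituitary markers that could be tested, *Gh* (growth hormone), *Prl* (prolactin) and *Cga* (the common subunit of glycoprotein hormones), had higher estimates in KO libraries in each of the 4 comparisons, and in basal GABA-CB1 mice the 7 markers summed to 9.01 to 204 CPM in KO and to 2.4 to 14.7 CPM in CB1-WT libraries. In that comparison DESeq2 called *Cga* higher, and edgeR called 0 of the 3. Over all libraries *Tbx19*, the transcription factor of *Pomc*-producing pituitary cells, had a median of 0.03 CPM, and *Pitx1* and *Tshb* were also near 0. The deviations of *Pomc* followed the summed markers with r = 0.67 and rho = 0.67 over 48 libraries (p = 1e-05 and 2e-05, permutation within groups; adjusted p = 7e-04 and 0.0014). Without the 2 farthest libraries r was 0.64, and within the ranges of sample numbers it was 0.69. The genes nearest to *Pomc* were *Prl* (r = 0.67) and *Gh* (0.66), followed by *Rasa4* (0.47). Of the 6 hypothalamus markers *Agrp* reached at most 0.26 CPM in any library, *Oxt* 0.62, *Pmch* 1.46 and *Avp* 2.68 CPM. The list summed to between 0.60 and 3.25 CPM. The part of pituitary or hypothalamic RNA in the *Pomc* values was not tested.

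*Pnoc*, the nociceptin precursor, lay between 4.41 and 8.39 CPM in all libraries. Its group means ran from 6.13 ± 1.00 (SD, n = 5) in basal Glu-CB1-WT mice to 6.91 ± 0.52 (SD, n = 6) in basal GABA-CB1-WT mice. Log2 differences between genotypes lay between -0.10 and 0.12 (adjusted p of 0.680 or more, edgeR). The 3 nearest genes were *Sphk2*, *Agpat1* and *Cystm1* (r from 0.66 to 0.71 over 48 libraries).

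*Tac1*, the precursor of substance P and neurokinin A, was the gene of the 10 with a difference past the threshold. After the open field its KO effect differed between the lines. In Glu-CB1 mice after the open field the CB1-WT libraries had 2.76, 3.37, 5.33, 5.75 and 5.82 CPM, and the 7 KO libraries ran from 5.76 to 7.68 CPM (median 6.66). The KO libraries were higher apart from an overlap at one end, where the lowest KO value lay below the highest CB1-WT value. The mean of these CB1-WT libraries, 4.61 CPM, was the lowest of the 8 groups, and the KO mean was 6.77 CPM. Basal means in this line were 6.41 CPM (CB1-WT) and 6.63 CPM (KO). In GABA-CB1 mice the KO libraries had 4.14, 4.65, 4.68, 5.12 and 5.24 CPM, and the 7 CB1-WT libraries ran from 4.81 to 7.20 CPM (median 6.55). Here the KO libraries were the lower ones, and only the lowest CB1-WT library fell within their range.

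The log2 difference between KO and CB1-WT was 0.56 ± 0.16 in the Glu-CB1 line (SE, adjusted p = 0.282, edgeR) and -0.40 ± 0.10 in the GABA-CB1 line (adjusted p = 0.177), so neither passed alone. The difference between these effects, GABA-CB1 minus Glu-CB1, was -0.96 ± 0.20 (95% interval -1.37 to -0.55, adjusted p = 0.0172, edgeR). It made *Tac1* the 1 of 10 genes called in this comparison, with 0.568% of all 15325 genes called. *Penk* and *Oprd1* also had an unadjusted p under 0.05 there, as did 10.8% of all genes. DESeq2 gave -0.96 (adjusted p = 3.51e-04) and called *Tac1* and no other of the 10. The call held when each of the 24 libraries was left out, with adjusted p between 0.00899 and 0.0427 and estimates between -1.06 and -0.82. The pair of low Glu-CB1-WT libraries, at 2.76 and 3.37 CPM, had the most weight, since the smallest estimate and the highest p came without 1 or the other of them. No fit left out both.

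In the basal state the same difference between lines was -0.31 ± 0.21 (adjusted p = 0.715, edgeR), with *Tac1* at 0.05 ± 0.15 in Glu-CB1 and -0.26 ± 0.13 in GABA-CB1 mice. Of the 10 genes 0 were called there by edgeR or DESeq2 and 0 had an unadjusted p under 0.05, with 0.279% of all genes called and 8.56% at that p. Whether the difference between lines itself changed with the open field was not tested.

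**Figure D3:**
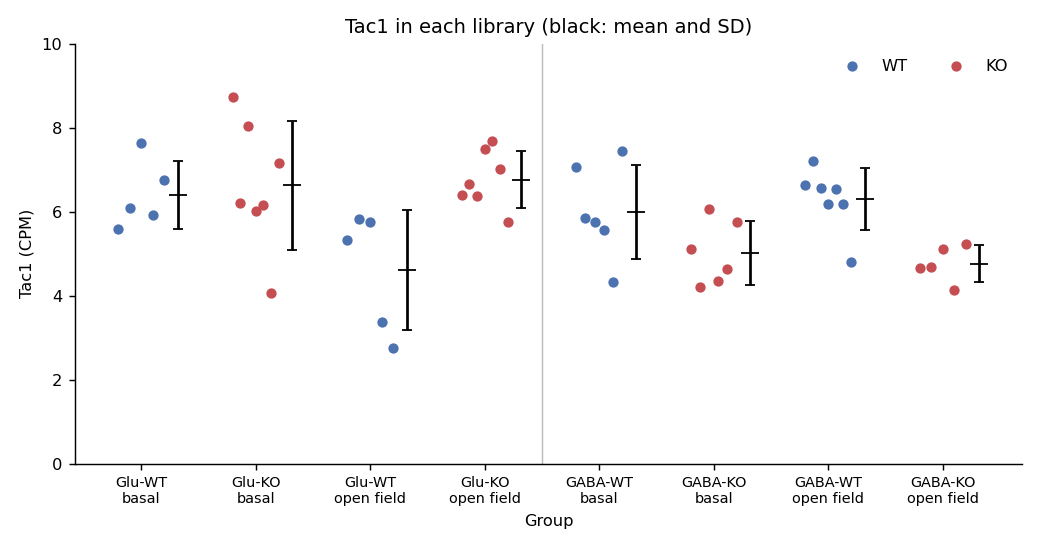
*Tac1* (CPM) in each library of the 8 groups, with CB1-WT in blue and KO in red, and the mean and SD in black. After the open field KO libraries lie above CB1-WT in the Glu-CB1 line (means 6.77 and 4.61 CPM) and below it in the GABA-CB1 line (4.77 and 6.30 CPM).

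Interneuron markers moved with *Tac1*. In the same comparison between lines 10 of 10 interneuron markers had lower estimates and 3 were called, *Sst* (somatostatin, -0.78 ± 0.12), *Npy* (neuropeptide Y, -0.76 ± 0.13) and *Gad1* (GABA synthesis, -0.25 ± 0.05), with a median of -0.23 for the list and 0.00 for all genes. After the open field the 10 markers summed to 819 to 967 CPM in Glu-CB1-WT, 970 to 1062 CPM in Glu-CB1-KO, 940 to 1008 CPM in GABA-CB1-WT and 865 to 922 CPM in GABA-CB1-KO libraries, and each of the 10 had a mean of at least 1 CPM in every group. Over the 48 libraries the deviations of *Tac1* from the group means followed the summed interneuron markers (r = 0.64, rho = 0.57; p = 1.5e-04 and 4.9e-04, permutation within groups; adjusted p = 0.0035 and 0.0098). Without the 2 farthest libraries r was 0.62 and within the ranges of sample numbers it was 0.74, and *Sst* was among the 3 nearest genes (*Tmtc4* 0.65, *Sst* 0.64, *Lrrtm3* 0.64).

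Genes of other lists also had shifted estimates in that comparison. The 5 subiculum and cortex markers all had lower estimates, with *Fezf2* called (-0.47 ± 0.11; the call held in 13 of 24 fits that left out 1 library, with adjusted p up to 0.102, edgeR). After the open field they summed to 112 to 172 CPM in Glu-CB1-WT, 144 to 182 in Glu-CB1-KO, 131 to 228 in GABA-CB1-WT and 96.6 to 200.0 in GABA-CB1-KO libraries. Of 7 thalamus markers tested *Prkcd* was higher (0.62 ± 0.11). The list summed to 103 to 124 CPM in Glu-CB1-WT and 81.9 to 95.5 in Glu-CB1-KO libraries, and to 91.3 to 122 and 85.9 to 127 CPM in GABA-CB1-WT and KO libraries, with *Gbx2* near 0. Pituitary markers, of which 3 could be tested, had lower estimates and 0 were called by edgeR or DESeq2. They summed to 0.19 to 54.2 CPM in Glu-CB1-WT and 12.95 to 128 in Glu-CB1-KO libraries, and to 4.45 to 62.0 and 7.28 to 76.0 CPM in GABA-CB1-WT and KO libraries. The deviations of *Tac1* followed that sum with r = 0.51 and rho = 0.43 (adjusted p = 0.0452 and 0.0849, permutation within groups), so this relation passed by r and not by rho. Choroid plexus markers had higher estimates for 6 of 6 (median 2.23, 5 with an unadjusted p under 0.05, *Otx2* called by DESeq2). Their sum was 53.4 to 121 CPM in Glu-CB1-WT, 47.7 to 281 in Glu-CB1-KO, 51.1 to 91.2 in GABA-CB1-WT and 62.3 to 4039 CPM in GABA-CB1-KO libraries, where 1 library held the highest value and the other 4 were at or below 95.5 CPM. CA pyramidal markers were higher for 7 of 8 (median 0.28, 3 with an unadjusted p under 0.05, *Rgs14* called by DESeq2), with sums of 657 to 711, 611 to 719, 634 to 750 and 720.2 to 770.2 CPM in the same order of groups. Microglia markers were higher for 4 of 5 (median 0.27, 3 with an unadjusted p under 0.05), with sums of 184 to 220.5, 181 to 191, 173 to 189 and 184 to 205 CPM. Striatum markers were higher for 4 of 6 (median 0.27, 3 with an unadjusted p under 0.05), with sums of 31.7 to 35.2, 31.96 to 35.7, 30.9 to 38.003 and 29.8 to 40.4 CPM. EdgeR called 0 markers of these 4 lists. The part of any of these lists in the *Tac1* result was not tested.

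**Figure D4:**
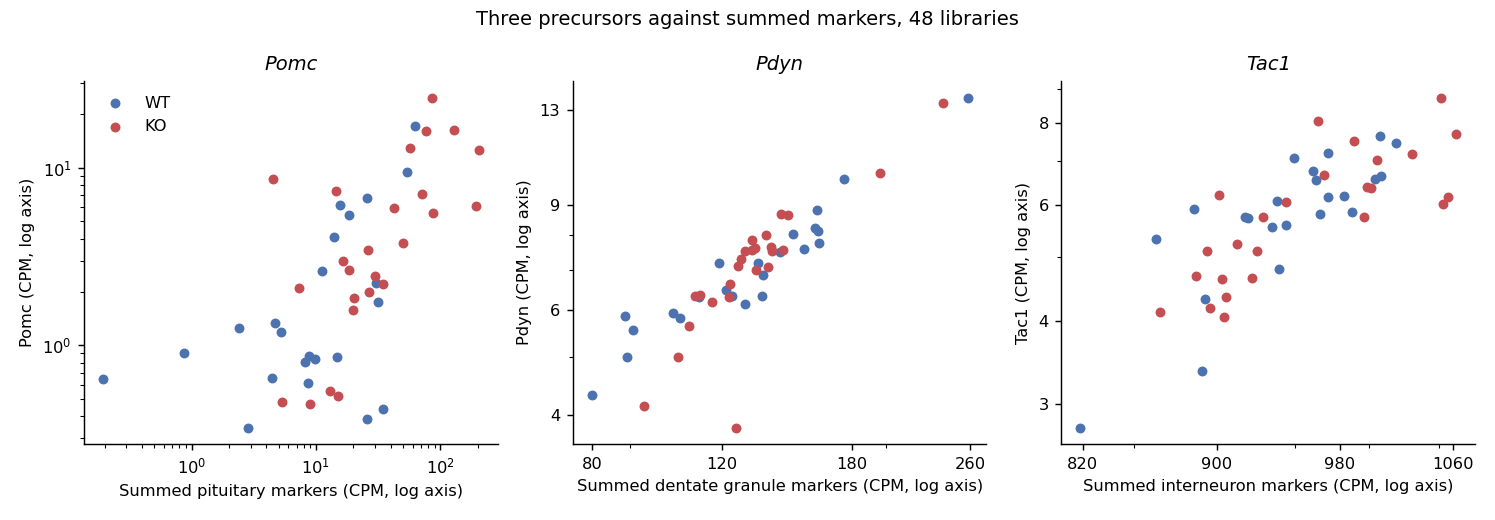
*Pomc* against summed pituitary markers, *Pdyn* against summed dentate granule markers and *Tac1* against summed interneuron markers (CPM, log axes), with 1 point per library, CB1-WT in blue and KO in red. In each panel the precursor increases with the markers, most tightly for *Pdyn* (r = 0.89 for deviations from group means).

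The *Tac1* promoter is shown because cAMP-responsive and AP-1 elements are classical elements of genes that respond to activity. The window runs from 250 bases before to 50 after the RefSeq start (GRCm38.p6, chr6:7554811-7555110, plus strand), with a match to a variant of the cAMP-response element in capitals.
Tac1 promoter: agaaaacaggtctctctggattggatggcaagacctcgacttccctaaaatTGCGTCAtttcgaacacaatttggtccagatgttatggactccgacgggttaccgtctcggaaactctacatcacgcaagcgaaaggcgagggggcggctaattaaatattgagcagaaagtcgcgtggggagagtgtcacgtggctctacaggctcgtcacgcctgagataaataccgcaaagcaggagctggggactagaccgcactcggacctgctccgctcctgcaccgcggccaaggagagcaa
The letters TGCGTCA begin 199 bases before the start and occur, on either strand, in 2.12% of 32851 promoter windows. The full cAMP-response element TGACGTCA (1.79% of windows) and the AP-1 element TGACTCA (5.20%) were not found in this window. RefSeq windows were matched for 7 of the 10 genes (12 windows). *Penk*, *Pnoc* and *Oprk1* had no window and were not searched. Of the 7 genes searched, *Tac1* alone held any of the 3 motifs. The variant was chosen after the *Tac1* window had been read, so its match there was fixed beforehand. A match is not evidence of binding.

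*Tac2*, the neurokinin B precursor, was low, with 42 to 102 reads per library. In basal GABA-CB1 mice the KO libraries ran from 1.99 to 3.28 CPM (median 2.92) and the CB1-WT libraries from 1.23 to 2.57 CPM (median 2.10). The upper KO libraries lay above all CB1-WT libraries, but the ranges overlapped. The log2 difference was 0.53 ± 0.17 (SE, adjusted p = 0.394, edgeR), and it was 0.26, 0.10 and 0.10 in the basal Glu-CB1, open field Glu-CB1 and open field GABA-CB1 comparisons. Its nearest genes were *Nap1l5*, *Rsrc1* and *Ckmt1* (r = 0.65, 0.64 and 0.60).

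Among the receptors, *Oprl1* (nociceptin receptor) was measured most precisely and hardly differed. It had 1436 to 2148 reads per library, and its group means lay between 56.8 ± 4.42 (SD, n = 7, basal Glu-CB1-KO) and 61.8 ± 4.26 CPM (SD, n = 5, open field GABA-CB1-KO). Log2 differences between genotypes ran from -0.06 to 0.10, with 95% intervals that stayed within -0.19 and 0.20. In open field Glu-CB1 mice the difference was 0.10 ± 0.05 (unadjusted p = 0.0472, adjusted p = 0.707, edgeR). Its nearest genes were *Zcchc18*, *Zwint* and *B630019K06Rik* (r = 0.76, 0.76 and 0.75).

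*Oprd1*, the delta receptor, had 9.11 to 14.9 CPM. After the open field the GABA-CB1-KO libraries had 10.9 ± 0.82 CPM (SD, n = 5) and the CB1-WT libraries 12.5 ± 1.35 CPM (SD, n = 7), ranges of 9.79 to 11.8 and 10.9 to 14.1 CPM that overlap. The log2 difference was -0.19 ± 0.08 (adjusted p = 0.336, edgeR), and the difference from the effect in the Glu-CB1 line was -0.33 ± 0.14 (adjusted p = 0.355). Its nearest genes were *Spock2*, *Xylt1* and *Ntrk2* (r = 0.74, 0.72 and 0.71).

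*Oprk1*, the kappa receptor, lay between 2.16 and 5.82 CPM, with log2 differences between genotypes from -0.16 to 0.16 and adjusted p of 0.839 or more (edgeR). Its nearest genes were *Timp2*, *Gab2* and *Dcaf12l1* (r = 0.74, 0.72 and 0.71). Its deviations ran opposite to those of the dynorphin precursor *Pdyn* (r = -0.60, rho = -0.49; p = 2.1e-04 and 0.00119, permutation within groups; adjusted p = 0.00945 and 0.0268 over the 45 pairs among the 10 genes, computed after the data were seen). Without the 2 libraries farthest in *Pdyn* r was -0.45, and within the ranges of sample numbers it was -0.75. The relation was not particular to *Oprk1*. *Pdyn* also ran opposite to *Oprl1* (r = -0.52, rho = -0.51, adjusted p = 0.0241 and 0.0268, permutation within groups). The same held for *Pdyn* and *Oprd1* (r = -0.42, rho = -0.45, adjusted p = 0.0241 and 0.0338, permutation within groups). Of the 45 pairs 7 had an adjusted p under 0.05 by r and 6 also by rho, with r between -0.60 and 0.50. *Oprk1* and *Oprl1* also ran opposite to the dentate granule markers that *Pdyn* followed (r = -0.52 and -0.56, rho = -0.43 and -0.58; adjusted p = 0.0233 and 0.0035 by r, and 0.0569 and 0.0028 by rho). Without the 2 farthest libraries these were r = -0.33 and -0.49. *Oprd1* ran opposite to the dentate granule markers too, passing by r and not by rho (r = -0.46, rho = -0.42; adjusted p = 0.0317 and 0.0792, permutation within groups). Without the same libraries its r was -0.35. *Oprk1* and *Oprl1* also ran opposite to the thalamus markers, which passed by r and by rho (*Oprk1* r = -0.62, rho = -0.56, adjusted p = 0.0014 and 0.00616; *Oprl1* r = -0.56, rho = -0.54, adjusted p = 0.004 and 0.00957; permutation within groups). As given above, that sum is mostly *Prkcd* and *Plekhg1*.

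*Oprm1*, the mu receptor, had 4 to 61 reads per library, and its level differed between ranges of the number in the sample titles. The titles end in numbers that fall into 3 ranges per line, and their meaning is not stated in the sources used here. In the Glu-CB1 line the 11 libraries of the first range had 0.12 to 0.62 CPM (median 0.29), the 5 of the second 1.33 to 1.90 CPM, and the 8 of the third 0.60 to 2.17 CPM. With group in the fit the first range was lower than the others by a log2 difference of -2.04 ± 0.21 (adjusted p = 2.26e-07, edgeR), in a comparison chosen after the data were seen in which 21.3% of all genes were called.

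In the GABA-CB1 line the first range was less uniform. Its 13 libraries ran from 0.12 to 1.56 CPM (median 0.89), against 0.91 to 2.00 CPM in the other 11. The log2 difference was -0.74 ± 0.35 (adjusted p = 0.321, edgeR), with 0.0715% of all genes called. The genes nearest to *Oprm1*, looked up after its values were seen since its mean is under 1 CPM, included *Ube3a* and *Ptpn4* (r = 0.97 for each over 48 libraries). The other 9 genes of the set were not called by range in either line (adjusted p of 0.117 or more, edgeR), and *Tac1* differed by 0.09 ± 0.11 and -0.07 ± 0.08. With range as a covariate the difference of *Tac1* between lines after the open field was -0.93 (adjusted p = 0.0344, edgeR). Deviations of *Oprm1* followed the sum of the medial habenula list with r = 0.62 and rho = 0.62 (adjusted p = 0.0014 for both, permutation within groups), and within the ranges r was 0.41. That sum (median 57.6 CPM) is nearly all *Nwd2* (median 54.3 CPM), while the other 5 genes of the list had medians of 0.07 to 1.04 CPM. Genotype differences of *Oprm1* lay between -0.30 and 0.70, with SEs from 0.45 to 0.59, in fits without the range. The highest was that of basal GABA-CB1 mice, whose genotypes were unevenly spread over the ranges. Genotype and range are thus partly mixed in it. With range as a covariate the count of all genes called in that comparison went from 37 to 7 (edgeR).

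**Figure D5:**
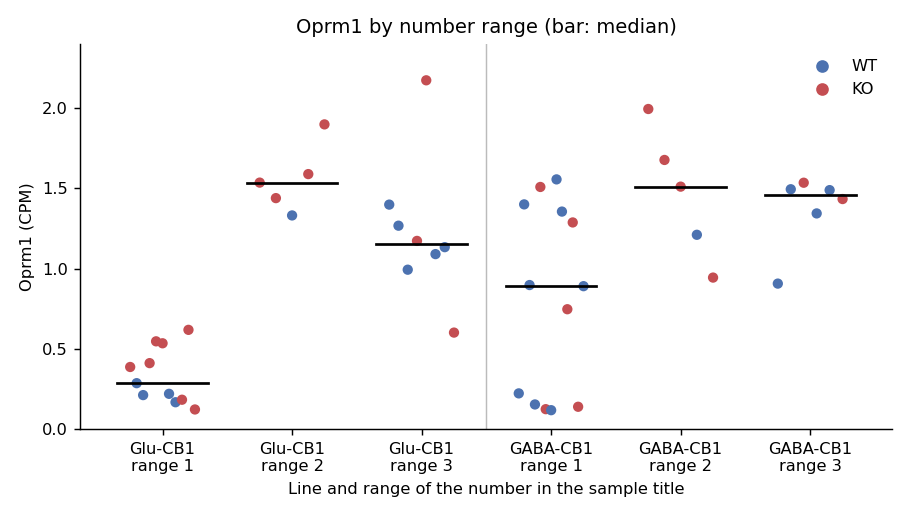
*Oprm1* (CPM) by line and range of the number in the sample title, with 1 point per library (CB1-WT blue, KO red) and a bar at the median. All 11 libraries of the first Glu-CB1 range lie at or below 0.62 CPM, and those of the first GABA-CB1 range lie on both sides of that value.

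The brief open field exposure gave no call among the 10 genes at the single time sampled. Compared over both genotypes, edgeR and DESeq2 called 0 of 10 in each line and 0 had an unadjusted p under 0.05, against 1.30% of all genes called in Glu-CB1 mice and 1.03% in GABA-CB1 mice (12.8% at the unadjusted p in both). Their median log2 difference was -0.02 in Glu-CB1 mice and 0.02 in GABA-CB1 mice, against 0.00 for all genes in both. *Tac1* was at -0.22 ± 0.12 in the Glu-CB1 line (adjusted p = 0.436, edgeR) and at 0.00 ± 0.08 in the GABA-CB1 line. *Pdyn* was at -0.05 ± 0.14 and -0.21 ± 0.14, and *Penk* at -0.02 ± 0.08 and 0.05 ± 0.06.

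The test of whether the KO effect changed with the state gave no call among the 10 genes or among all genes in either line (0% called, edgeR). In the Glu-CB1 line *Tac1* (0.51 ± 0.23) and *Oprl1* (0.16 ± 0.07) had an unadjusted p under 0.05, as did 2.47% of all genes. In the GABA-CB1 line 0 of the 10 had, while 14.6% of all genes did. DESeq2 called 0 of the 10 in either line and gave no adjusted p for 8 of them in the GABA-CB1 line.

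Of the genes that process, receive or degrade these peptides, 38 in 5 lists, edgeR called 0 of those that could be tested in the 10 comparisons. Of the tachykinin receptors *Tacr1* (substance P receptor) and *Tacr3* (neurokinin B receptor) had 2.58 and 2.71 CPM on average, *Tacr2* 0.21 CPM, and *Tac4*, a further tachykinin precursor, at most 0.07 CPM. *Tacr1* had an unadjusted p under 0.05 in 2 comparisons, at 0.30 ± 0.12 in open field Glu-CB1 mice and 0.28 ± 0.10 in basal GABA-CB1 mice (adjusted p = 0.611 and 0.521, edgeR).

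Of the 7 genes of peptide processing 2 had an unadjusted p under 0.05 in GABA-CB1 mice after the open field, as did 13.2% of all genes. *Pcsk1*, a proprotein convertase, had 13.9 to 18.6 CPM in the 5 KO libraries (median 17.9) and 19.1 to 24.1 CPM in the 7 CB1-WT libraries (median 23.3). *Pam*, which makes the terminal amide of substance P, had 187 to 212 and 213 to 231 CPM. The groups did not overlap for either gene, as for 0.987% of all genes. Log2 differences were -0.43 ± 0.08 (*Pcsk1*, adjusted p = 0.107, edgeR) and -0.18 ± 0.04 (*Pam*, adjusted p = 0.126), short of the threshold, and DESeq2 called both (adjusted p = 1.95e-04 and 4.14e-04). In that comparison DESeq2 called 141 of all genes and edgeR 3. DESeq2 also called *Pcsk1* for the change of the KO effect with state in this line (-0.53 ± 0.12 by edgeR, with adjusted p = 0.198 by edgeR and 0.0247 by DESeq2). For that change DESeq2 called 62 of all genes and edgeR 0.

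The 8 genes of peptide degradation, the 9 Gi/o proteins and GIRK channels and the 10 receptor regulators (kinases, arrestins and RGS proteins) had medians between -0.05 and 0.05 in the comparisons of genotype and of state, and neither tool called any of them. Genes with an unadjusted p under 0.05 included *Mme* (neprilysin, which degrades enkephalin and substance P) at 0.22 ± 0.07 in basal GABA-CB1 mice (adjusted p = 0.322, edgeR), and *Rgs4* at -0.19 ± 0.08 in GABA-CB1 mice after the open field (adjusted p = 0.333).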

How the data were processed

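Gene-level read counts were deposited by the authors for 48 libraries of CA tissue (NuGEN SPIA amplification, single-end reads). Per the labels and the study's methods, reads were trimmed with bbduk, aligned to mm10 with STAR 2.6.0a and counted with featureCounts 1.6.2. The study ran featureCounts with an option for stranded reads. Whether the kit marks strand is not given in the sources used here, so whether that option suits the libraries is not known. Antisense and overlapping genes therefore cannot be separated. Counts were tested with edgeR 4.0.16 (R 4.3.3; TMM, filterByExpr, quasi-likelihood test), with only the groups compared in each fit and Benjamini-Hochberg adjustment over all genes tested. CPM uses the total of each library multiplied by its TMM factor, taken over all 48 libraries, and correlations use log2(CPM + 0.5). DESeq2 1.42.0 was an alternative. The scripts were tested on simulated data. Groups came from the labels, and 1 library per mouse was the replicate. The 10 genes, the lists and the motifs were chosen with earlier results of these data known. All 10 genes are named, as are the 3 genes nearest to each by Pearson's r among those with a mean of at least 1 CPM, and genes of the pathway and immediate early lists past the threshold. A gene near *Oprm1* is not reported here. Marker genes are named where they bear on a result. Other list genes named were chosen after their values were seen. Intervals are at 95%. Total counts of 25892654 to 34091080 per library make counting error largest for *Oprm1*, followed by the lowest *Pomc* libraries and *Tac2*.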

Additional observations from a re-analysis of the deposited data

Results flagged for a closer look

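The difference between the lines' KO effects on *Tac1* after the open field, GABA-CB1 minus Glu-CB1, was -0.96 on the log2 scale and passed the test of the difference itself. Of the markers given beside it in the report, edgeR called genes of the interneuron, subiculum and cortex, and thalamus lists. Choroid plexus and CA pyramidal markers had a call by DESeq2 only (*Otx2* and *Rgs14*). Pituitary, microglia and striatum markers had shifted estimates but no call by either tool. The part of any of these lists was not tested.

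Dixon's test was run on CPM without logs. By chance it flags about 1 in 20 groups where values are normally distributed, which was not tested here. Single libraries stood apart from their group in 9 of 80 combinations of gene and group. *Pomc* accounted for 3 of them, all at the high end: 4.08 CPM in basal GABA-CB1-WT replicate 2 (next value 1.26), 17.1 CPM in open field GABA-CB1-WT replicate 5 (next 2.61) and 16.1 CPM in open field GABA-CB1-KO replicate 5 (next 2.21). *Pdyn* was lowest at 4.32 CPM in basal Glu-CB1-WT replicate 3 (next 7.20) and highest at 13.3 CPM in basal Glu-CB1-KO replicate 2 (next 7.86). The same basal Glu-CB1-WT replicate 3 had the highest *Oprl1* of its group, 65.4 CPM (next 59.4). *Penk* was lowest at 23.2 CPM in open field Glu-CB1-WT replicate 3 (next 32.997). *Tac1* was lowest at 4.81 CPM in open field GABA-CB1-WT replicate 7 (next 6.18), the library that overlapped the KO range. *Oprm1* was lowest at 0.125 CPM in basal GABA-CB1-KO replicate 2 (next 1.51).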

How the results depend on the processing

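The count of the 10 genes called kept its value in the 60 fits of 10 comparisons under 6 alternatives (besides leave-one-out), and 0 results changed sign. DESeq2 gave no adjusted p for 7 of the 10 in open field GABA-CB1 and for 8 in genotype by state in GABA-CB1. Those genes could not be called there. The *Tac1* difference between lines lay between -1.08 and -0.93 (adjusted p at most 0.0344). Counts over all genes moved more. With DESeq2 they were 7 (3 by edgeR; basal Glu-CB1), 124 (41; open field Glu-CB1), 102 (37; basal GABA-CB1), 141 (3; open field GABA-CB1), 357 (200) and 280 (159) for the open field in the Glu-CB1 and GABA-CB1 lines, 62 (0) for genotype by state in GABA-CB1, and 75 (43) and 195 (87) for the difference between lines, basal and open field. With all 48 libraries in one fit 7 were called in basal Glu-CB1, 106 in open field GABA-CB1, 374 for the open field in Glu-CB1 and 53 for the difference between lines after the open field. With number range as a covariate 7 were called in basal GABA-CB1 and 21 for the basal difference between lines. With the replicate block 3 were called in open field Glu-CB1, 8 in basal GABA-CB1, 1 in open field GABA-CB1, 34 for the open field in GABA-CB1 and 54 for the difference between lines after the open field. Replicate numbers do not pair the mice: over 109 same-numbered pairs the correlation of deviations ran from -0.50 to 0.59 (median -0.04). Leaving out 1 library gave 3 to 5 (basal Glu-CB1), 14 to 48 (open field Glu-CB1), 17 to 34 (basal GABA-CB1), 2 to 11 (open field GABA-CB1), 88 to 355 and 73 to 284 (open field in Glu-CB1 and GABA-CB1), 0 and 0 to 1 (genotype by state), and 29 to 47 and 50 to 112 (difference between lines, basal and open field). The cause was not tested. Depth limits *Oprm1* (4 to 61 reads) most.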
